A study of Mus musculus with 12 samples.

Results

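Constitutive knockout of sphingosine kinase 2 (SphK2) was compared with wild type in male mice fed a Western diet and sugar water, a regimen used to model early metabolic dysfunction-associated steatohepatitis (MASH), the inflamed form of fatty liver disease. The comparison took the 3 knockout and the 3 wild-type mice on that diet, 6 of the 12 mice of the series, each assigned by the animal, diet and genotype written over its column of values. All mice carried the C57BL6-NJ background, and the knockout was labelled constitutive, so that it was not limited to 1 cell type. The labelled ages were 221, 217 and 252 days for knockout replicates 1 to 3, and 226, 226 and 232 days for wild-type replicates 1 to 3. Per the labels' protocols the diet began at 12 to 18 weeks of age and lasted 16 weeks, and the background groups were 3 constitutive SphK2 knockouts aged 259, 253 and 250 days and 3 wild-type mice aged 231, 231 and 232 days, all on the control diet. A separate label of diet duration differs from these 16 weeks. It reads 22, 23 and 27 weeks for knockout replicates 1 to 3 and 18, 19 and 25 weeks for wild-type replicates 1 to 3. Over the series it runs from 16 to 27 weeks in the order of deposit, and it was not used. The longest start age and the 16-week diet time together fall short of the labelled ages of knockout replicate 3 and of the 3 control-diet knockouts, if those are ages at death. Only the series title names the liver as the tissue, but products of hepatocytes were among the most abundant genes: the complement gene C3 averaged 40798 ± 1722 normalized counts in knockout and 37960.4 ± 2615 in wild-type Western-diet mice (mean ± SD, n = 3 each). The probes did not include Sphk2 or any other gene of sphingosine 1-phosphate metabolism or its receptors, so the knockout itself could not be checked in the RNA. The title of the series frames the question as whether loss of SphK2 changes liver inflammation in this model.

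SphK2 is a lipid kinase that phosphorylates sphingosine to sphingosine 1-phosphate, partly in the nucleus and in mitochondria. Secreted sphingosine 1-phosphate acts through G protein-coupled receptors on leukocyte traffic and on the endothelial barrier, and the nuclear pool is known to inhibit histone deacetylases. In steatohepatitis, fat-laden hepatocytes are injured, circulating monocytes enter the liver and become macrophages beside the resident Kupffer cells, and macrophages that take up lipid carry the receptor TREM2 and the tetraspanin CD9.

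Messenger RNA of 547 mostly immune genes was counted with barcoded NanoString probes, and a level here is the authors' normalized count, returned from the deposited log2 scale. Whole counts recovered from those values summed to between 540976 and 643638 in the knockout Western-diet libraries and between 440842 and 476529 in the wild-type ones, so depth moved with genotype without overlap. Its part in the differences was not tested. Wild-type replicate 2 stood apart from its group: it had the lowest of the 3 wild-type levels for 280 of the 453 tested genes, and on the first principal component, which held 58.9% of the variance, it lay at -5.59, inside the range of the 6 control-diet libraries (-6.65 to -3.76). Wild-type replicates 1 and 3 lay at 5.29 and 1.13, and the knockout Western-diet libraries at 10.3, 11.6 and 10.4. Within groups the median SD of a gene on the log2 scale was 0.124 for knockout and 0.216 for wild-type Western-diet mice, and an SD over 0.5 was seen for 10 genes in knockout and 68 genes in wild-type mice. Counts of calls between the Western-diet groups are therefore given also without wild-type replicate 2, and a named gene whose call rested on that mouse is marked as such. On the control diet the median SD was 0.209 in knockout and 0.145 in wild-type mice, with 60 and 15 genes over 0.5. The test below took 1 spread per gene from all 4 groups, control-diet mice included. In tissue RNA, more cells of a type and more RNA per cell cannot be told apart.

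Of 453 tested genes, 161 passed between knockout and wild-type mice on the Western diet (35.5%, limma, Benjamini-Hochberg adjusted p under 0.05): the knockout was higher for 146 (32.2%) and lower for 15 (3.31%). The median tested gene differed by 0.26 on the log2 scale, knockout minus wild type, and a difference near that value moved no more than the panel as a whole. Without wild-type replicate 2 the median was 0.20 and 94 genes passed (20.8%), 86 higher (19.0%) and 8 lower (1.77%). For 125 of the 146 genes called higher that mouse had the lowest wild-type level, beside 280 of all 453 tested genes. For 92 of the 146 its level lay within the range of the 6 control-diet mice, beside 297 of the 453. The same held for 39 of the 146 in wild-type replicate 1 and for 66 in wild-type replicate 3. Over the 453 tested genes these counts were 224 and 244. In 120 of the 146 every knockout Western-diet mouse was above every control-diet mouse of either genotype, beside 169 of the 453. The split between higher and lower calls also moved with the scaling. Recentring on each library's median ratio gave 112 calls (24.7%), with 69 genes higher (15.2%) and 43 lower (9.49%). Quantile normalization gave 96 calls (21.2%), 42 in the higher (9.27%) and 54 in the lower direction (11.9%). Recentring on each library's own median placed the median gene at -0.30 and gave 156 calls (34.4%), 26 of genes that were higher (5.74%) and 130 of genes that were lower (28.7%).

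A total of 28 genes kept their call and direction under all 4 scalings and with each of the 12 libraries left out in turn, 16 fits in all, and were singled out after their values were seen. Leaving out a control-diet library could change only the estimate of spread and not the difference. The fits with a library left out used the authors' scaling only. The 22 higher ones included genes that macrophages express (Trem2, Cd9, Msr1, Itgax, Csf1r, Tyrobp, Fcer1g), which do not tell resident from infiltrating cells. Others were the alarmins S100a8 and S100a9, the monocyte chemokine Ccl9, the class II gene H2-Eb1, the lysosomal protease gene Ctss and the pattern receptor Tlr2. Also among them were the leukocyte adhesion and signalling genes Itgb2, Cd44, Cd48 and Csf2rb, the interferon-inducible Ifi204, the urokinase receptor Plaur, the growth factor Tgfb1 and the defensin Defb1. The 6 lower ones were Ctsc, Mme, Nox4, Cd1d1, Il1rap and Masp2. In all 28 the 3 knockout and 3 wild-type levels did not overlap, which was also true of 226 of the 453 tested genes (49.9%).

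**Figure D1:**
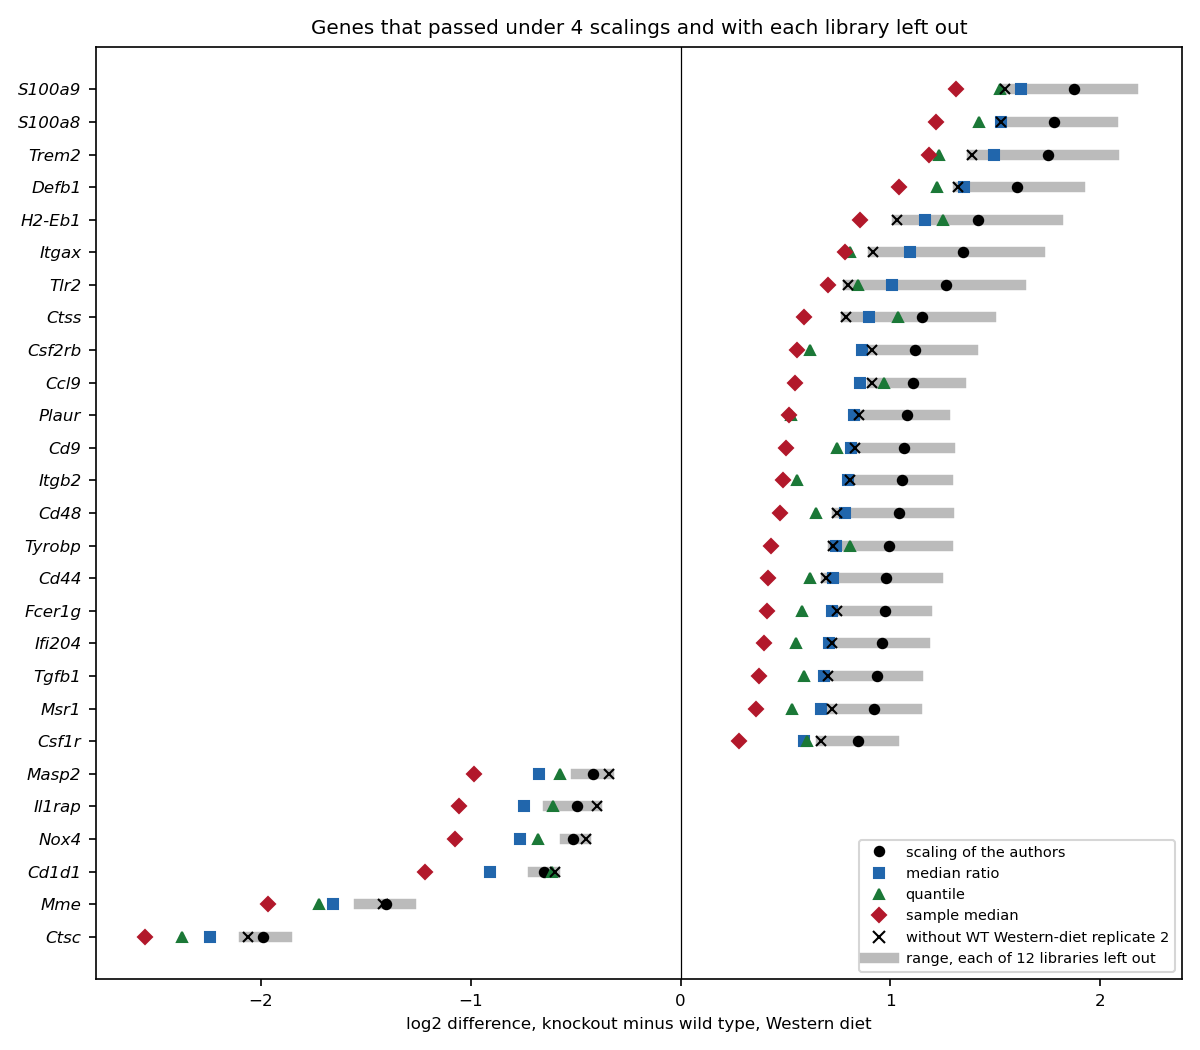
Log2 difference, knockout minus wild type on the Western diet (x axis), of 27 of the 28 genes that passed in all 16 fits. Symbols give the 4 scalings, crosses the value without wild-type replicate 2 and grey bars the range over fits that left out 1 library each. Trem2 stands at 1.75 and Ctsc at -1.99 under the authors' scaling. No symbol or bar of the 27 genes crosses 0, which follows from how they were chosen.

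The genes lower in the knockout were fewer, and the largest of them did not depend on the wild-type mouse that stood apart. Ctsc encodes cathepsin C, the lysosomal peptidase that activates granule proteases of neutrophils, mast cells and cytotoxic lymphocytes. Its level was 216, 261 and 212 normalized counts in knockout replicates 1 to 3, against 1062, 819.9 and 864 in wild-type replicates 1 to 3. All wild-type mice were far above all knockout mice. The log2 difference, knockout minus wild type and given here and below with its standard error, was -1.99 ± 0.16 (limma adjusted p = 1.91e-05) and -2.06 without wild-type replicate 2. Mme encodes neprilysin, a membrane metallopeptidase that degrades peptide hormones, and stood at 317, 448 and 367 in knockout mice, against 997, 966 and 1006 in wild-type mice. The wild-type mice lay close together and all far above the knockout, a difference of -1.40 ± 0.30. Nox4, an NADPH oxidase gene that makes hydrogen peroxide in hepatocytes and stellate cells, had 887, 829 and 820.2 in knockout and 1169, 1316 and 1139 in wild-type mice (-0.51 ± 0.087). Here the separation was narrower but complete.

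Cd1d1 encodes the class I-like molecule that shows lipid antigens to natural killer T cells. Its level was 4284, 4837 and 4563 in knockout and 6688, 7712 and 7135 in wild-type mice, with no overlap, a difference of -0.65 ± 0.083 (limma adjusted p = 0.00109) and of -0.60 without wild-type replicate 2. Il1rap, the shared co-receptor of interleukin 1 and interleukin 33, had 1639, 1368 and 1524 in knockout and 1757, 2418 and 2248 in wild-type mice (-0.49 ± 0.11). The nearest mice of both groups, knockout replicate 1 and wild-type replicate 1, were only slightly apart. Masp2, a serine protease of the lectin pathway of complement made by hepatocytes, had 2120.3, 2135 and 2087 in knockout and 2531, 3157 and 2828 in wild-type mice (-0.42 ± 0.085). The knockout mice hardly varied, while the wild-type mice spread upward from just above them.

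Another 9 genes were called lower, and wild-type replicate 2 had the highest wild-type level in 13 of all 15. The scavenger receptor gene Cd163 of resident macrophages had 58.4, 49.9 and 41.7 in knockout and 56.7, 96.9 and 84.9 in wild-type mice (-0.64 ± 0.23), and the groups overlapped through wild-type replicate 1. The complement gene C8g had 6686, 5506 and 6108 in knockout and 6636, 8692 and 7989 in wild-type mice (-0.35 ± 0.11), and these also overlapped. Among the remaining 7, the lymphotoxin receptor Ltbr differed by -0.28 ± 0.075. The NF-kB kinase gene Chuk differed by -0.25 ± 0.080, the peptidase Dpp4 by -0.24 ± 0.068, the chemokine Cxcl12 by -0.22 ± 0.076, the Toll-like receptor inhibitor Tollip by -0.21 ± 0.071 and the proteasome subunit Psmb7 by -0.19 ± 0.067. In these 7 genes all knockout mice lay below all wild-type mice, as in 37 of the 453 tested genes (8.17%). Without wild-type replicate 2, Dpp4 passed (limma adjusted p = 0.0499), and Cd163, C8g, Ltbr, Chuk, Cxcl12, Tollip and Psmb7 did not (limma adjusted p between 0.0588 and 0.174).

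Ctsc, Nox4 and Mme were also low in knockouts on the control diet. Ctsc averaged 270.3 ± 66.1 normalized counts in knockout and 1071 ± 107 in wild-type control-diet mice (SD, n = 3 each), a log2 difference of -2.00 ± 0.16. For Nox4 these means were 694 ± 69.0 and 1160.1 ± 45.3, and for Mme 163 ± 85.6 in knockout and 834 ± 98.8 in wild-type control-diet mice. The difference of the genotype effect between the diets did not pass for any of the 3 (limma adjusted p = 0.972 for Ctsc, 0.215 for Nox4 and 0.119 for Mme). In the RefSeq annotation of GRCm38.p6, Ctsc and Nox4 lie on chromosome 7 with 2 protein-coding genes between them, neither of them measured, and Sphk2 lies on the same chromosome with 252 protein-coding genes between it and Nox4. Mme and Cd1d1 lie on chromosome 3, Il1rap on 16 and Masp2 on 4. On chromosome 7, 3 of 34 tested genes were called lower and 15 higher, with a median difference of 0.39.

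**Figure D2:**
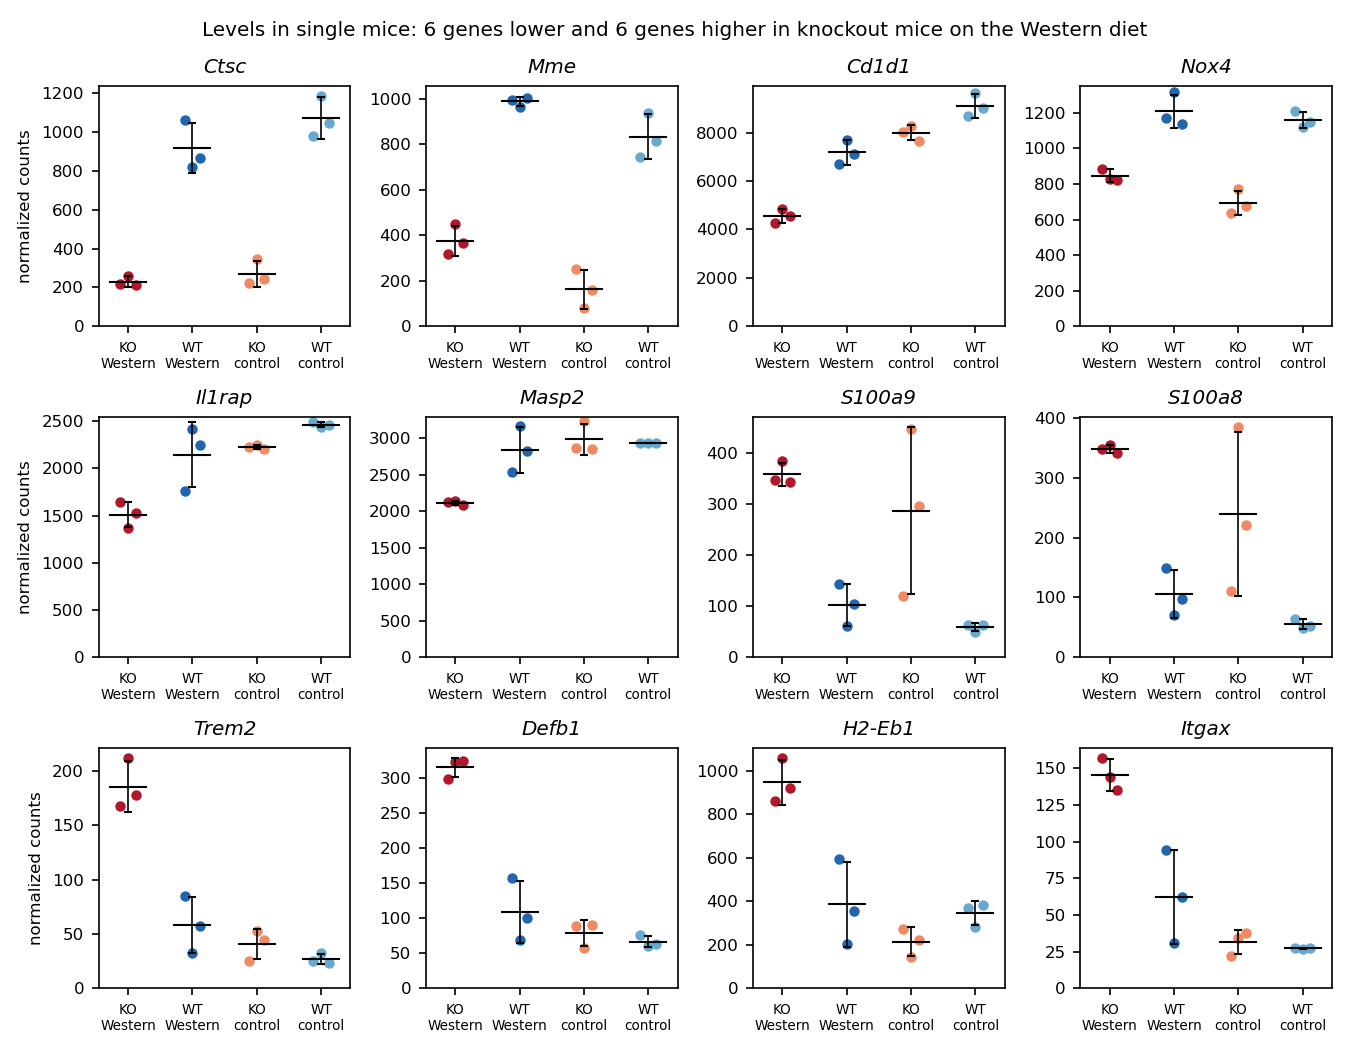
Normalized counts (y axis, linear from 0) of single mice in the 4 groups for the 6 genes lower and 6 of the genes higher in knockout mice on the Western diet. Dots are mice, bars the mean and SD of 3 mice. Ctsc, Mme and Nox4 are low in both knockout groups, while Trem2 lies between 168 and 212 in knockout and between 32.6 and 84.5 in wild-type Western-diet mice.

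Macrophage genes formed the broadest group that was higher in the knockout. Of 18 macrophage and monocyte markers measured, 15 rose and 1, Cd163, fell, beside 32.2% and 3.31% of all tested genes. The median difference of these markers was 0.89 against 0.26 over all tested genes. The median was between 0.33 and 0.64 under the 3 other scalings, and without wild-type replicate 2 it was 0.63 with 9 of 18 higher and none lower. The summed level of the 18 markers was 10777, 13274 and 11824 in knockout replicates 1 to 3, against 10930, 6246 and 8185 in wild-type replicates 1 to 3. The sums overlapped, and none of the 18 markers was at 0. The most abundant of them, the fatty acid receptor Cd36 that hepatocytes also express, did not pass, with 3388, 4789 and 4048 in knockout and 4881, 3275 and 3902 in wild-type mice (0.025 ± 0.41, 95% interval -0.86 to 0.91). Csf1r, through which CSF1 keeps macrophages alive, had 794, 858 and 815 in knockout and 582, 359 and 458 in wild-type mice (0.84 ± 0.13, limma adjusted p = 0.00317), 0.67 without wild-type replicate 2. Cybb, the catalytic subunit of the phagocyte oxidase, had 805, 973 and 912 in knockout and 706, 310.0 and 477 in wild-type mice (0.92 ± 0.22). In both genes every knockout mouse was above every wild-type mouse, as in 41.7% of all tested genes, and wild-type replicate 1 came closest to the knockout.

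Genes of lipid-associated macrophages were higher as well. Of 6 measured, 5 rose, beside 32.2% of all tested genes. Without wild-type replicate 2, 5 were also higher, beside 19.0% of all tested genes. The median difference of the 6 was 1.03. Trem2, a lipid-sensing receptor that signals through TYROBP, had 168, 212 and 178 in knockout and 84.5, 32.6 and 57.7 in wild-type mice. The difference was 1.75 ± 0.33 (limma adjusted p = 0.0044) and 1.39 without wild-type replicate 2, whose level was close to the control-diet means of 40.7 ± 13.9 in knockout and 27.1 ± 4.73 in wild-type mice. Cd9 had 542, 686 and 583 in knockout and 389.6, 207 and 292 in wild-type mice (1.06 ± 0.18). Itgax, the integrin CD11c of dendritic cells and of lipid-laden macrophages, had 157, 144 and 135 in knockout and 94.4, 30.6 and 62.1 in wild-type mice (1.35 ± 0.33), and the scavenger receptor Msr1 had 561, 609.8 and 575 and 407, 230.5 and 306 in the same order (0.92 ± 0.16). In these 4 genes all knockout mice were above all wild-type mice, as in 189 of the 453 tested genes (41.7%). Tyrobp, the adaptor of TREM2 and of activating NK receptors, differed by 0.99 ± 0.20.

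Of 4 genes listed for resident Kupffer cells, C1qa and C1qb rose, Cd163 fell and Marco did not pass; Clec4f and Timd4, which are used to mark these cells, were not on the panel. The complement genes C1qa and C1qb are made mainly by macrophages in liver. C1qa had 1441, 1466 and 1484 in knockout and 1009.8, 612 and 862 in wild-type mice (0.85 ± 0.15), and 0.65 without wild-type replicate 2. Marco, a scavenger receptor, had 169, 79.5 and 127 in knockout and 83.5, 67.3 and 71.9 in wild-type mice, which overlapped (0.69 ± 0.26, limma adjusted p = 0.0546).

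**Figure D3:**
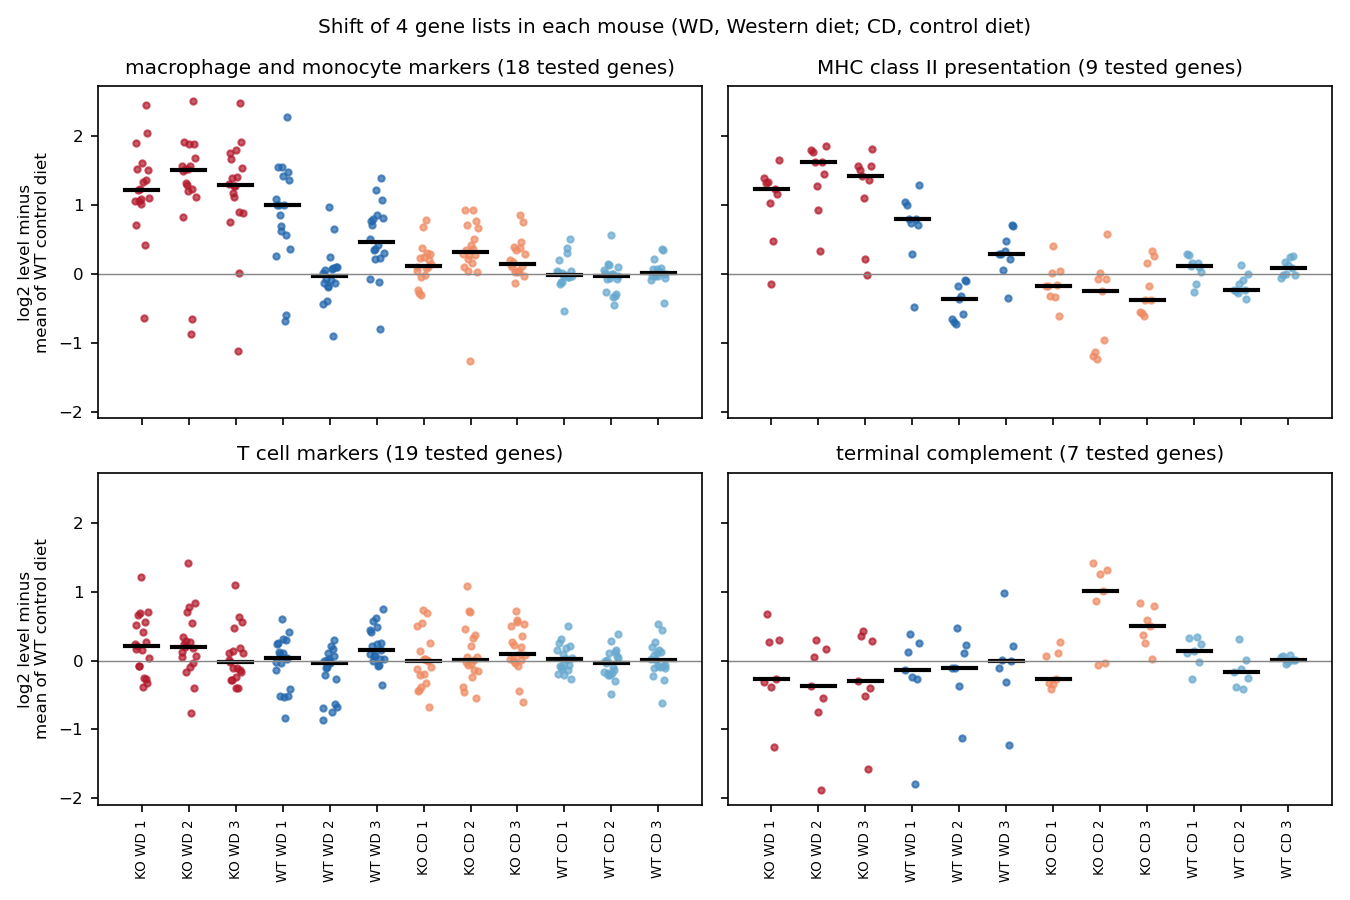
Log2 level minus the mean of the wild-type control-diet mice (y axis) in each of the 12 mice, for the tested genes of 4 lists; dots are genes and bars medians of the list. The median macrophage marker stands at 1.22, 1.51 and 1.29 in the knockout Western-diet mice, at 0.99, -0.03 and 0.46 in the wild-type Western-diet mice, and the T cell list stays between -0.03 and 0.21 in these 6 mice.

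Chemokines that draw monocytes rose in part. Of 11 tested monocyte and macrophage chemokines and factors, 6 rose and none fell, with a median of 0.66. Without wild-type replicate 2, 3 of 11 were higher. Of all tested genes 32.2% were called higher, and 19.0% without that mouse. The median stayed above 0 under the other scalings, at 0.10 when recentred on the sample median. Ccl2, the main ligand of CCR2 on inflammatory monocytes, had 807, 572 and 681 in knockout and 392, 95.9 and 236 in wild-type mice. Knockout mice were all higher, but the wild-type mice were spread widely, with replicate 2 lowest. The difference was 1.71 ± 0.47 (limma adjusted p = 0.0166), and 1.16 without wild-type replicate 2, where it no longer passed (limma adjusted p = 0.0584). Ccl9, a ligand of CCR1 made by macrophages, had 1491, 1832 and 1558 in knockout and 1035, 574 and 715 in wild-type mice (1.11 ± 0.18), and passed in all 16 fits. In the control-diet mice Ccl9 averaged 1425 ± 54.3 in knockout and 1304 ± 169 in wild-type mice, and all control-diet mice lay below the knockout and above the wild-type Western-diet mice.

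Ccl6 had 150.3, 258 and 212 in knockout and 134, 49.0 and 79.5 in wild-type mice (1.31 ± 0.36), and Ccl5, which draws T cells and monocytes, differed by 1.02 ± 0.33; neither passed without wild-type replicate 2 (limma adjusted p = 0.0588 for Ccl6 and 0.121 for Ccl5). The macrophage growth factor Csf1 had 271, 218 and 236 in knockout and 179, 124 and 157 in wild-type mice (0.66 ± 0.15), while the cytokine Mif had 2810.2, 3245 and 2910.0 and 1999.8, 2010.1 and 2000.0 in the same order (0.57 ± 0.12). Mif differed from the other genes of this list in its wild-type mice, which hardly varied and gave 0.58 without replicate 2. Its difference shrank to 0.011 when libraries were recentred on the sample median.

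Genes for chemokine receptors were expressed at low levels, and 8 of 19 on the panel were under the level tested. Of the 11 tested, 4 rose and none fell, a share near the 32.2% called higher among all tested genes. Their median was 0.37 and turned to -0.19 when recentred on the sample median. Leaving out wild-type replicate 2 left 1 of 11 higher and 1 lower, the lower one being Ccr10, a receptor of skin-homing T cells. Ccr10 had 14.6, 18.5 and 17.8 in knockout and 24.8, 17.3 and 50.1 in wild-type mice. These overlapped near the lowest level tested, and wild-type replicate 3 was far above the rest. The difference was -0.70 ± 0.34 with all mice, where it was not called, and -1.02 without wild-type replicate 2. Ccr2, the receptor for CCL2, had 267, 279 and 273 in knockout and 238, 76.5 and 128 in wild-type mice (1.03 ± 0.31), and Cx3cr1, the fractalkine receptor of patrolling monocytes and tissue macrophages, 101, 90.6 and 91.9 in knockout and 67.6, 21.4 and 51.2 in wild-type mice (1.14 ± 0.37). For both genes wild-type replicate 1 approached the knockout and replicate 2 was far below. Neither passed without that mouse (limma adjusted p = 0.0797 and 0.104).

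Among chemokines for neutrophils and lymphocytes 3 of 13 rose, a share below the 32.2% of all tested genes, and 1, Cxcl12, fell. The median of 0.17 was below the median of all tested genes and turned negative under each of the 3 other scalings. The 3 that rose were the neutrophil chemokine Cxcl1 and the interferon-induced T cell chemokines Cxcl9 and Cxcl10, and none of them passed without wild-type replicate 2. Cxcl9 had 405, 426 and 422 in knockout and 207, 179 and 152 in wild-type mice (1.22 ± 0.37). The knockout was above the wild type in every mouse, but the wild-type control-diet mean of 340.4 ± 158 lay between both Western-diet groups.

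S100a8 and S100a9, alarmins of neutrophils and of newly arrived monocytes, had the largest rises of the panel. S100a8 had 348, 355 and 341 normalized counts in knockout and 149, 70.4 and 96.9 in wild-type mice (1.78 ± 0.37, limma adjusted p = 0.00583), and S100a9 had 347, 384 and 343 and 143, 61.2 and 103 in the same order (1.87 ± 0.40). The knockout mice differed by less than the wild-type mice did, and the groups were far apart. Without wild-type replicate 2 the differences were 1.52 for S100a8 and 1.55 for S100a9. On the control diet S100a8 averaged 239 ± 137 in knockout and 55.2 ± 7.95 in wild-type mice, with a wide spread in the knockout. The difference of the genotype effect between diets was -0.15 ± 0.52 (limma adjusted p = 0.876). Of 6 tested neutrophil markers 3 rose, beside 32.2% of all tested genes. The third was the integrin Itgam, which monocytes share (0.87 ± 0.21). Another 3 of the 9 neutrophil markers on the panel were under the level tested. Csf3r, the receptor for granulocyte colony-stimulating factor, had 78.2, 72.1 and 81.1 in knockout and 53.7, 51.0 and 39.2 in wild-type mice, without overlap but not called (0.69 ± 0.27, limma adjusted p = 0.0643).

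Genes that present antigen on class II molecules rose nearly together. Of 9 measured, 8 rose, beside 32.2% of all tested genes. Without wild-type replicate 2, 7 of 9 were higher, beside 19.0% of all tested genes. The median difference of the 9 was 1.15, and 0.79 without that mouse. Under the other scalings the median lay between 0.59 and 1.04. H2-Eb1, a class II beta chain, had 861, 1059.8 and 921 in knockout and 596, 206 and 356 in wild-type mice (1.42 ± 0.32, 1.03 without wild-type replicate 2). H2-Aa, the alpha chain of the other class II pair, had 4101, 5483 and 4665 in knockout and 3221, 999 and 1912 in wild-type mice (1.36 ± 0.36), and its partner H2-Ab1 had 2302, 3149 and 2626 and 1854, 570.1 and 1131 in the same order (1.33 ± 0.35). In each of the 3 genes knockout replicate 2 was highest, wild-type replicate 1 came nearest to the knockout and wild-type replicate 2 was lowest, below both control-diet means. For H2-Aa those were 1047 ± 353 in knockout and 1588 ± 296 in wild-type control-diet mice.

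Ciita, the transcriptional coactivator that switches class II genes on, had 88.5, 108 and 117 in knockout and 64.6, 36.7 and 64.2 in wild-type mice (0.95 ± 0.28), and did not pass without wild-type replicate 2 (0.68, limma adjusted p = 0.0972). The chaperone gene H2-DMa, which loads peptides, differed by 0.83 ± 0.20. Cathepsin S, the product of Ctss, cuts the invariant chain that guards the class II groove, and had 2351, 2689 and 2633 in knockout and 1819, 695 and 1204 in wild-type mice (1.15 ± 0.26). In the same mice this protease gene was higher in the knockout and the protease gene Ctsc lower.

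Class II promoters carry a conserved element, the Y box, to which the factor NF-Y binds, and the 150 bases before the annotated starts of H2-Aa, H2-Eb1, Cxcl9 and Cxcl10 are shown because each holds the letters CTGATTGG, read on either strand, and each of these genes rose. The sequences are from RefSeq (GRCm38.p6), 5′ to 3′ on the gene's strand, with the match in capitals. H2-Aa is at chr17:34287824-34287973 (minus strand), H2-Eb1 at chr17:34305717-34305866 (plus strand), Cxcl9 at chr5:92328080-92328229 and Cxcl10 at chr5:92348890-92349039 (both minus strand).
H2-Aa: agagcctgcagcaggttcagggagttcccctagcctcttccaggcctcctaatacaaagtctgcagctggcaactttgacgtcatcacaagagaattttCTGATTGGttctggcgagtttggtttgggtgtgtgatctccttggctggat
H2-Eb1: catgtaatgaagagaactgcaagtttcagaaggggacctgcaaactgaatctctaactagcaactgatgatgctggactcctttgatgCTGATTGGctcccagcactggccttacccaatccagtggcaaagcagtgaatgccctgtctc
Cxcl9: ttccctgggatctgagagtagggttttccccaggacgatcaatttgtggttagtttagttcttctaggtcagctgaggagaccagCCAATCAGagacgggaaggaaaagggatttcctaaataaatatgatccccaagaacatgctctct
Cxcl10: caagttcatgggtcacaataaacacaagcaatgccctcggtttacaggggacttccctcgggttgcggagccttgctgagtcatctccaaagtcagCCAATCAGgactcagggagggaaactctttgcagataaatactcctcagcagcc
The match starts 51, 62, 65 and 54 bases before the annotated start in these 4 genes, and it is on the opposite strand in Cxcl9 and Cxcl10. Windows of this length held CTGATTGG in 3.16% of 32851 RefSeq promoters, in 10 of the 335 tested genes with an entry and in 5 of the 105 such genes called higher, so the letters did not set the higher genes apart. A match is a run of letters and not a measured binding site. H2-Ab1, Ciita and Ccl2 were not in the promoter table.

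Class I presentation moved little. Of 11 measured genes, 2 rose and 1 fell, beside 32.2% and 3.31% of all tested genes. The median of 0.10 was below that of all tested genes and negative under each of the other 3 scalings. The counts without wild-type replicate 2 were 2 higher and 0 lower. B2m, the light chain of all class I molecules, had 53983, 54201 and 54131 in knockout and 52016, 48831 and 50834 in wild-type mice (0.10 ± 0.10, 95% interval -0.12 to 0.31). H2-Q10, a class I gene of hepatocytes, differed by 0.0098 ± 0.088, with a 95% interval of -0.18 to 0.20. Tapbp, or tapasin, which tethers class I molecules to the peptide transporter, had 842, 756 and 816 in knockout and 624, 639 and 602 in wild-type mice (0.37 ± 0.070), which turned to -0.19 when recentred on the sample median, and Psmb10, a subunit of the immunoproteasome, differed by 0.64 ± 0.17.

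**Figure D4:**
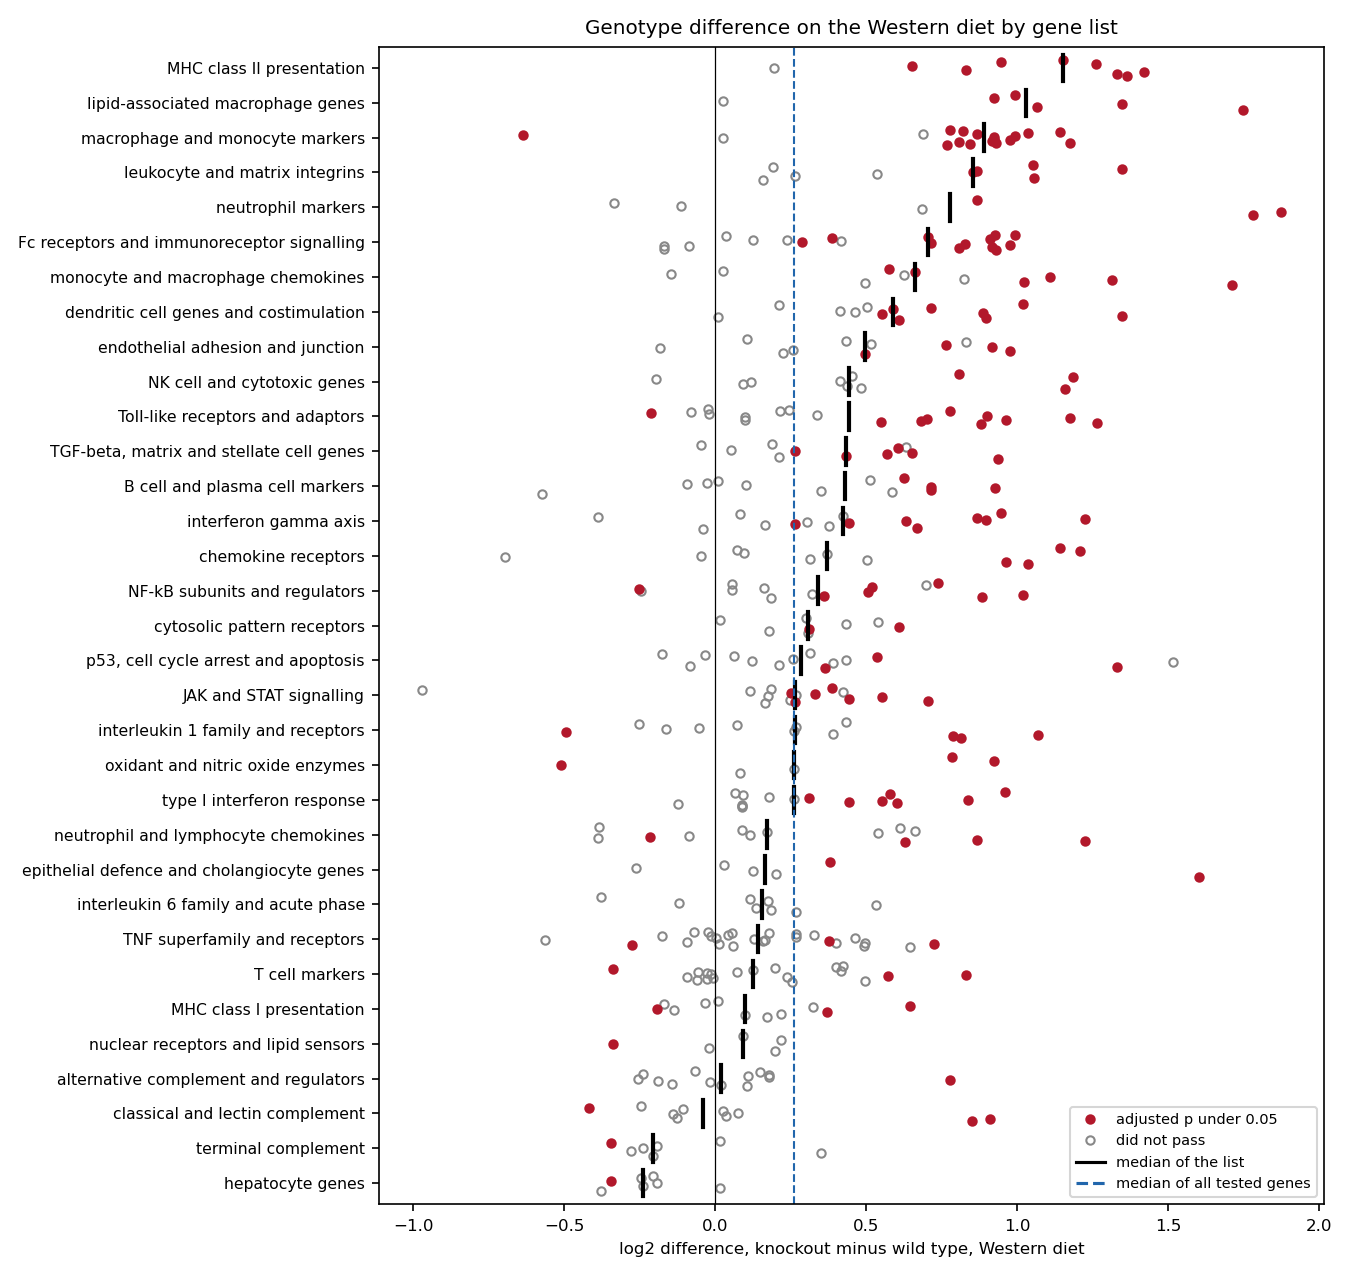
Log2 difference, knockout minus wild type on the Western diet (x axis), of the tested genes of each gene list with at least 5 of them (y axis, ordered by median). Filled dots passed the test, black bars are list medians and the dashed line is the median of all tested genes, 0.26. Class II genes lead with a median of 1.15 and hepatocyte genes, most of them also on the terminal complement list, close the order with -0.24.

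Pattern receptors were mixed. Of 18 Toll-like receptors and adaptors, 9 rose, beside 32.2% of all tested genes, and Tollip fell. The median of 0.44 turned negative after quantile normalization (-0.08) and when recentred on the sample median (-0.12). Without wild-type replicate 2, 4 of 18 were higher, beside 19.0% of all tested genes. Tlr2, the receptor for bacterial lipoproteins, had 70.4, 65.6 and 70.3 in knockout and 46.7, 14.3 and 32.7 in wild-type mice (1.26 ± 0.32), 0.80 without wild-type replicate 2. Wild-type replicate 2 was far below the other mice, at a level of few counts. Tlr4, the receptor for lipopolysaccharide, had 204, 206 and 169.9 in knockout and 146, 99.9 and 118 in wild-type mice (0.68 ± 0.18), and Cd14, its co-receptor, 174, 131 and 157 in knockout and 92.4, 41.8 and 78.4 in wild-type mice (1.18 ± 0.32, not called without wild-type replicate 2, limma adjusted p = 0.0588). Irak3, an inhibitor of these receptors in macrophages, also rose (0.78 ± 0.20).

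Of 14 tested NF-kB subunits and regulators, 6 rose, beside 32.2% of all tested genes, and 1, Chuk, fell. The median of 0.34 turned negative under the same 2 scalings. When wild-type replicate 2 was left out, 5 of 14 were higher and none lower, beside 19.0% of all tested genes higher. Nfkb2 and Relb form the dimer of the non-canonical pathway. Nfkb2 had 344, 299 and 304 in knockout and 216, 114 and 201 in wild-type mice (0.88 ± 0.19, 0.59 without wild-type replicate 2), and Relb had 241, 223 and 208 and 187, 66.3 and 107 in the same order (1.02 ± 0.27). Both were higher in every knockout mouse. Rela, a subunit of the canonical dimer, differed by 0.36 ± 0.075, a size near the median of all genes, and turned to -0.0084 after quantile normalization and to -0.20 when recentred on the sample median.

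In the interleukin 1 family 3 of 12 tested genes rose, a share below the 32.2% of all tested genes, and Il1rap fell. The median was 0.26, the same as for all tested genes, and was near 0 or negative under the other scalings. Il1rap stayed lower and 2 of 12 higher without wild-type replicate 2. Il1a, the cytokine that dying cells release, had 192, 201 and 203 in knockout and 119, 110.1 and 109 in wild-type mice (0.81 ± 0.11, limma adjusted p = 0.00109). Both groups were tight, they did not overlap, and the difference was 0.80 without wild-type replicate 2. Il1b, secreted after inflammasome cleavage, had 186, 102 and 148 in knockout and 83.5, 70.4 and 91.5 in wild-type mice (0.79 ± 0.21), with knockout replicate 2 only slightly above wild-type replicate 3, and it did not pass without wild-type replicate 2 (limma adjusted p = 0.0536). Il1rn, the secreted receptor antagonist, had 292, 325 and 273 in knockout and 245, 80.6 and 140.4 in wild-type mice (1.07 ± 0.30). Tnf, at 20.6, 30.5 and 25.5 in knockout and 22.9, 19.4 and 8.71 in wild-type mice, was near the lowest level tested and overlapped (0.64 ± 0.33, 95% interval -0.081 to 1.37). None of the 8 tested genes of the interleukin 6 family and acute phase passed; their median was 0.15 and negative under the other 3 scalings.

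Type I interferon genes shifted about as far as the panel as a whole. Of 15 tested type I interferon response genes, 7 rose and none fell, beside 32.2% called higher among all tested genes. Without wild-type replicate 2, 3 of 15 were higher, beside 19.0% of all tested genes. The list median was 0.26, equal to that of all tested genes. It turned to -0.11 after quantile normalization and to -0.30 when recentred on the sample median. Ifi204, an interferon-inducible sensor of DNA in macrophages, had 325, 312 and 297 in knockout and 212, 114 and 168 in wild-type mice (0.96 ± 0.19) and passed in all 16 fits. Ifitm1 differed by 0.58 ± 0.17 and did not pass without wild-type replicate 2 (limma adjusted p = 0.0735). Of 15 genes of the interferon gamma axis 8 rose and none fell, beside the same 32.2%. The median of 0.42 turned to -0.14 when recentred on the sample median. Leaving out wild-type replicate 2 left 2 of 15 higher, beside 19.0% of all tested genes. The receptor chain Ifngr1 had 603, 691 and 639 in knockout and 468, 344 and 412 in wild-type mice (0.67 ± 0.11, 0.55 without wild-type replicate 2). Cxcl10 had 235, 166 and 213 in knockout and 140.1, 89.7 and 108 in wild-type mice (0.87 ± 0.27, limma adjusted p = 0.106 without wild-type replicate 2).

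Most complement genes did not pass between genotypes on the Western diet. The test took 1 spread per gene from all 4 groups, and control-diet knockouts varied most in some complement genes. The SD of C3 was 28756 in control-diet knockouts, against 1722 in knockout and 2615 in wild-type Western-diet mice. For C9 it was 5504, against 489 and 176. The Western-diet groups did not overlap in 4 of 13 alternative, 5 of 10 classical and lectin and 2 of 7 terminal genes, beside 49.9% of all tested genes. Both of these terminal genes were lower in every knockout mouse, though neither was called. The alternative list and the classical and lectin list held separations in each direction. Of 13 tested genes of the alternative pathway and its regulators only properdin, Cfp, passed, and it is made by leukocytes: 809, 894 and 877 in knockout and 605, 412 and 506 in wild-type mice (0.78 ± 0.14). C3 had 42684, 39310.5 and 40400.0 in knockout and 35024, 40039.8 and 38817 in wild-type mice, which overlapped (0.11 ± 0.21, 95% interval -0.35 to 0.56). Cfb, factor B of the alternative pathway, differed by 0.019 ± 0.17 (95% interval -0.34 to 0.38). Cfd, the protease adipsin, had 234, 293 and 262 in knockout and 281, 296 and 289.6 in wild-type mice (-0.14 ± 0.24, 95% interval -0.67 to 0.39), and the groups overlapped. Among 10 classical and lectin pathway genes C1qa and C1qb rose and Masp2 fell, with a median of -0.04. Of 7 terminal complement genes C8g fell and none rose, with a median of -0.21. C9, the pore subunit, had 10536, 9628 and 10397 in knockout and 10264, 9991 and 9936 in wild-type mice (0.017 ± 0.21). Of 7 hepatocyte genes C8g again was the only one called, and the median was -0.24. Most of these 7 are also on the terminal complement list, so the 2 lists are not separate results. C8g did not pass without wild-type replicate 2 (limma adjusted p = 0.119), while the calls of Cfp, C1qa, C1qb and Masp2 held. Recentred on the median ratio, the list medians were -0.23 for the alternative pathway, -0.29 for the classical and lectin pathways, -0.46 for the terminal genes and -0.49 for the hepatocyte genes. Recentred on the sample median they were -0.54, -0.60, -0.77 and -0.80 in the same order, beside -0.30 for the median of all tested genes. Hamp, the iron hormone hepcidin, varied widely, with 17096, 11185 and 14247 in knockout and 12890.0, 23597 and 19668 in wild-type mice (-0.38 ± 0.28, 95% interval -0.99 to 0.23).

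Few T cell genes passed. Of 19 tested T cell markers 2 rose, Cd5 (0.57 ± 0.16) and Cd7 (0.83 ± 0.25), and 1 fell. Of all tested genes 32.2% rose and 3.31% fell. The median was 0.12, below that of all tested genes, and negative under the 3 other scalings, and 7 of 26 on the panel were under the level tested. Only Cd5 passed without wild-type replicate 2. Cd3e, a chain of the T cell receptor complex, had 30.9, 22.2 and 23.2 in knockout and 20.9, 11.2 and 22.9 in wild-type mice, and Cd8a had 33.5, 24.0 and 17.0 and 22.9, 19.4 and 31.6 in the same order. Both overlapped at a level of few counts, with differences of 0.50 ± 0.31 for Cd3e (95% interval -0.17 to 1.17) and -0.0093 ± 0.27 for Cd8a (95% interval -0.59 to 0.57). The sum over the 26 T cell genes was 1430, 1526 and 1409 in knockout and 1418, 1493 and 1667 in wild-type mice.

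Of 10 tested NK cell and cytotoxic genes 3 rose, near the 32.2% called higher among all tested genes. Their median was 0.44 and turned to -0.12 when recentred on the sample median, and 1 passed without wild-type replicate 2. Klrd1, the NK receptor CD94, had 55.0, 65.6 and 72.6 in knockout and 37.8, 22.4 and 26.1 in wild-type mice (1.16 ± 0.28, 1.0 without wild-type replicate 2). Of 12 tested B cell and plasma cell markers 4 rose, with a median of 0.43 that turned to -0.13 when recentred on the sample median. That share is near the 32.2% of all tested genes, and without wild-type replicate 2 only Blnk passed. Blnk, a linker of B cell receptor signalling that macrophages also express, had 86.8, 93.3 and 85.0 in knockout and 57.6, 39.8 and 42.5 in wild-type mice (0.93 ± 0.24). Cd22, an inhibitory receptor of B cells, had 70.4, 68.4 and 56.4 in knockout and 36.8, 34.7 and 46.8 in wild-type mice (0.71 ± 0.19). The 4 that rose include the kinase Btk (0.71 ± 0.24), which macrophages share, and Cd24a (0.62 ± 0.22), which bile duct cells share.

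Among 13 tested genes of dendritic cells and costimulation 8 rose and none fell, with a median of 0.59, and 4 were higher without wild-type replicate 2. Of all tested genes 32.2% were called higher, and 19.0% without that mouse. Irf8, a transcription factor of dendritic cells and monocytes, had 198, 202 and 181 in knockout and 142, 74.4 and 105 in wild-type mice (0.90 ± 0.22), and the costimulatory ligand Cd86 had 131, 142 and 129 and 94.4, 54.1 and 72.9 in the same order (0.89 ± 0.24). Irf8 passed without that mouse and Cd86 did not (limma adjusted p = 0.0633). Of 19 Fc receptors and immunoreceptor signalling genes 12 rose and none fell, with a median of 0.71, and 6 were higher without wild-type replicate 2. The shares of all tested genes are again 32.2% and 19.0%. Fcer1g, the shared gamma chain of activating Fc receptors, had 425, 444 and 438 in knockout and 291, 160.1 and 232 in wild-type mice (0.98 ± 0.17). Syk, the kinase it recruits, had 277, 288 and 279.6 in knockout and 193, 120.3 and 171 in wild-type mice (0.83 ± 0.16), and Ptprc, the leukocyte marker CD45, had 322, 279 and 289.6 and 216, 119 and 151 in the same order (0.91 ± 0.18). In each of these 5 genes all knockout mice were above all wild-type mice, as in 41.7% of all tested genes.

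Of 9 integrins 5 rose and none fell, with a median of 0.85, and 5 were higher also without wild-type replicate 2. Of all tested genes 32.2% were called higher, and 19.0% without that mouse. Itgb2, the beta chain shared by leukocyte integrins, had 173, 188 and 192 in knockout and 120.3, 62.2 and 91.5 in wild-type mice (1.05 ± 0.21). Cd44, a receptor for hyaluronan on leukocytes and stellate cells, had 479, 502 and 484 in knockout and 349, 165 and 261 in wild-type mice (0.98 ± 0.22). Csf2rb, the shared beta chain of the receptors for interleukin 3, interleukin 5 and GM-CSF, had 115, 130.3 and 124 in knockout and 82.5, 41.8 and 51.2 in wild-type mice (1.12 ± 0.22), and Cd48, an adhesion molecule of leukocytes, differed by 1.04 ± 0.23. All knockout mice were above all wild-type mice in each of these 4 genes, as in 41.7% of all tested genes. Of 11 tested endothelial adhesion and junction genes 4 rose and none fell, a share near the 32.2% called higher among all tested genes, with a median of 0.50 that turned to -0.07 when recentred on the sample median. Of these, Vcam1 and Cdh5 passed without wild-type replicate 2, 2 of 11. Vcam1, the ligand for leukocyte alpha 4 integrins, had 192, 230.1 and 182 in knockout and 129, 81.6 and 112 in wild-type mice (0.92 ± 0.18, 0.73 without wild-type replicate 2). Cdh5, the junction protein VE-cadherin, had 412, 409 and 365 in knockout and 274, 269 and 296 in wild-type mice (0.50 ± 0.084). Wild-type replicate 2 did not stand apart for Cdh5, but the difference turned to -0.067 when recentred on the sample median.

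Some genes linked to fibrosis were called higher. Of 11 tested genes of transforming growth factor beta, matrix and stellate cells 6 rose and none fell, beside 32.2% of all tested genes higher. The median of 0.43 was 0.09 after quantile normalization and turned to -0.13 when recentred on the sample median. A fit without wild-type replicate 2 called 4 of 11 higher, beside 19.0% of all tested genes. Tgfb1, the main profibrotic cytokine, had 512, 534 and 507 in knockout and 355, 195 and 285 in wild-type mice (0.93 ± 0.17, 0.70 without wild-type replicate 2). Tgfbi, a matrix protein induced by it, had 755, 782 and 782 in knockout and 602, 388 and 511 in wild-type mice (0.65 ± 0.13). The fibronectin gene Fn1, of which hepatocytes make the plasma form, had 10429, 10428 and 10197 in knockout and 9287, 11738 and 11265 in wild-type mice, which overlapped (-0.049 ± 0.13, 95% interval -0.32 to 0.23). Both urokinase genes rose. The receptor Plaur had 119, 105 and 102 in knockout and 65.6, 36.7 and 54.4 in wild-type mice (1.08 ± 0.20), and the protease Plau differed by 0.99 ± 0.27, or 0.66 without wild-type replicate 2 (limma adjusted p = 0.0534).

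Defb1, an epithelial beta defensin, had 299, 322 and 324 in knockout and 157, 69.3 and 100.2 in wild-type mice (1.60 ± 0.26, limma adjusted p = 0.00317). All knockout mice were far above the highest wild-type mouse, and the control-diet means were 78.9 ± 18.6 in knockout and 66.6 ± 8.22 in wild-type mice. Cdkn1a, the cell cycle inhibitor p21 that p53 induces in stressed hepatocytes, had 713, 529 and 659 in knockout and 284, 213 and 257 in wild-type mice (1.33 ± 0.34, 1.22 without wild-type replicate 2). On the control diet it averaged 474 ± 262 in knockout and 70.2 ± 5.15 in wild-type mice, a difference of 2.56 ± 0.34, and the difference of the genotype effect between the diets was -1.23 ± 0.48 (limma adjusted p = 0.119). Trp53 itself differed by 0.36 ± 0.13, which turned to -0.15 after quantile normalization and to -0.20 when recentred on the sample median, and it did not pass without wild-type replicate 2 (limma adjusted p = 0.111). These were 2 of the 3 called among 14 genes of p53, cell cycle arrest and apoptosis, whose median was 0.28 and turned negative after quantile normalization (-0.15) and recentring on the sample median (-0.28); 2 of the 14 passed without wild-type replicate 2.

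On the control diet the genotype difference passed for 13 of 453 genes (2.87%). The difference of the genotype effect between the diets passed for 6 of 453 (1.32%, limma with Benjamini-Hochberg adjustment): H2-Eb1, Il1a, Irf1, Tapbp, Ltbr and Cfd. Of these, Irf1 is outside the rule for named genes and was picked after its values were seen. This difference and the control-diet one were fitted only with all 12 libraries and the authors' scaling. Their dependence on single mice, wild-type replicate 2 included, and on scaling was not tested. H2-Eb1 averaged 947 ± 102 in knockout and 386 ± 197 in wild-type Western-diet mice, and 214 ± 65.7 in knockout and 345 ± 55.1 in wild-type control-diet mice. The knockout was thus above the wild type on the Western diet and below it on the control diet. Irf1, an interferon-induced transcription factor, averaged 684 ± 18.3 in knockout and 555 ± 41.3 in wild-type Western-diet mice, and 617 ± 90.9 in knockout and 855 ± 108 in wild-type control-diet mice. Il1a averaged 84.5 ± 5.66 in knockout and 83.8 ± 1.81 in wild-type control-diet mice, which are close, unlike the Western-diet groups.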

How the data were processed

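RNA of 12 mice in 4 groups of 3 was counted with NanoString probes, per the labels. The authors deposited log2 normalized counts; undoing the log2 gave whole counts times 1 factor per library for 100% of values (tolerance 0.001). The sources used here do not give how the factors were set. Columns were assigned by the headers over them, because all 12 columns of the deposited series-wide value table hold another animal's values. After return to the linear scale, log2(value + 1) was tested, so that changes of low genes are understated. A mean of 20 normalized counts or more was required, which left 453 of 547 genes. limma 3.58.1 (R 4.3.3) took 4 group means over the 12 libraries and a variance trend; tests were two-sided, with Benjamini-Hochberg adjustment over all tested genes at 0.05. An exact permutation test of 3 against 3 cannot go below 0.1. The fit was checked on simulated data. These had the same spread per gene in all groups and changes balanced up and down. The check therefore does not cover the unequal spreads and the shifted median seen here. Of the gene IDs, 545 matched RefSeq. Named genes were the 15 called genes that rose most, the 15 that fell most, up to 4 members of each list with the smallest p, the 10 most abundant genes and 16 chosen genes, and the text gives most of these; Ccr10, Cd36, Cd44, Cd48, Csf2rb and Irf1 were picked after their values were seen. Members and lists were chosen with earlier results of these data known. Results of some genes picked by the rule are not reported here, though counts include them. Other settings varied the libraries, scaling, filter, pseudocount, covariate and variance model. Recentring without wild-type replicate 2 was added after seeing the data.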

Additional observations from a re-analysis of the deposited data

Results flagged for a closer look

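The genotype effect differed between the diets for 6 genes by a test of that difference (limma, Benjamini-Hochberg adjustment over 453 genes), given as the Western-diet effect minus the control-diet effect on the log2 scale with its standard error. It was 2.54 ± 0.34 for Cfd (adjusted p = 0.00427), which averaged 263 ± 29.6 normalized counts in knockout and 289 ± 7.26 in wild-type Western-diet mice, and 23.9 ± 3.0 in knockout and 168 ± 69.0 in wild-type control-diet mice. The effect of H2-Eb1 differed by 2.14 ± 0.46 (adjusted p = 0.0414). For Il1a the value was 0.80 ± 0.15, for Irf1 0.78 ± 0.17 and for Tapbp 0.50 ± 0.10. Ltbr differed in the other direction, -0.51 ± 0.11: it averaged 1241 ± 8.47 in knockout and 1503 ± 65.1 in wild-type Western-diet mice, and 1411 ± 121 in knockout and 1196 ± 54.5 in wild-type control-diet mice. The adjusted p was 0.0414 for Il1a, Irf1, Tapbp and Ltbr. The test of the difference between diets was fitted only with all 12 libraries and the authors' scaling. Its dependence on single mice and on scaling was not tested.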

How the results depend on the processing

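The groups were different mice, so no paired analysis applied, and the labels give the mice no replicate numbers. The count of genes called moved with the scaling and with single mice. Quantile normalization gave 96 calls (42 higher and 54 lower in the knockout). Recentring on the median ratio gave 69 higher and 43 lower, and recentring on the sample median 26 higher and 130 lower. Recentring on the median ratio without wild-type Western-diet replicate 2, chosen after seeing the data, gave 56 calls (31 higher and 25 lower). With each library left out in turn, 84 to 177 genes were called, 77 to 161 higher and 7 to 19 lower; the fewest were called without knockout Western-diet replicate 2 (84) and wild-type Western-diet replicate 2 (94), and 7 lower genes were called without knockout Western-diet replicate 3 or wild-type Western-diet replicate 3. The remaining settings (pseudocount, filter, variance model, voom on recovered counts, the 6 Western-diet libraries alone, age as a covariate) gave between 135 and 170 calls. The log2 differences of some genes changed sign as follows, the called genes Cdh5, Rela, Stat2, Tapbp and Trp53 among them. Recentred on the sample median, the difference was -0.46 for B2m, -0.46 for C3, -0.55 for C9, -0.54 for Cd36, -0.067 for Cd3e, -0.067 for Cdh5, -0.54 for Cfb, -0.55 for H2-Q10, -0.26 for Irf1, -0.20 for Rela, -0.0097 for Stat2, -0.19 for Tapbp and -0.20 for Trp53. After quantile normalization, the difference was -0.094 for C3, -0.11 for Cd36, -0.030 for Cfb, -0.0084 for Rela and -0.15 for Trp53. Recentred on the median ratio, the difference was -0.16 for B2m, -0.15 for C3, -0.24 for C9, -0.23 for Cd36, -0.23 for Cfb and -0.24 for H2-Q10. With that scaling and without wild-type Western-diet replicate 2, the difference was -0.11 for B2m, -0.040 for C3, -0.17 for C9, -0.30 for Cd36, -0.18 for Cfb and -0.16 for H2-Q10. With age as a covariate, the difference was 0.027 for Cd8a. With each library left out in turn it ran from -0.0083 to 0.057 for C9, -0.11 to 0.17 for Cd36, -0.24 to 0.23 for Cd8a, -0.0022 to 0.041 for Cfb, -0.15 to 0.017 for Fn1 and -0.024 to 0.033 for H2-Q10. The cause was not tested. Genes under about 50 normalized counts, such as Cd3e, Cd8a and Tnf, rest on few counts and have wide intervals.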

Other observations

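Cytokine signalling genes outside the groups above moved modestly. Of 15 tested JAK and STAT genes, 7 were higher and none lower in knockout Western-diet mice, beside 32.2% of all tested genes higher. The median difference was 0.26, the same as over all tested genes. Without wild-type replicate 2, 2 of the 15 were higher, beside 19.0% of all tested genes. Stat2, a transducer of type I interferon signals, had 177, 180.2 and 185 normalized counts in knockout and 130.2, 122 and 116 in wild-type mice (0.55 ± 0.14), and the groups did not overlap, but the difference was -0.0097 when recentred on the sample median. Of 26 tested genes of the TNF superfamily and its receptors 2 were higher and 1 lower, beside 32.2% and 3.31% of all tested genes. The median was 0.14, and without wild-type replicate 2 the counts were 2 and 0. Tnfrsf1b, the second TNF receptor, which leukocytes and endothelium carry, had 307, 216 and 269.5 in knockout and 151, 151 and 173 in wild-type mice (0.72 ± 0.17, 0.69 without wild-type replicate 2). Of 8 cytosolic pattern receptors 2 were higher, a share below the 32.2% of all tested genes, and 2 also without that mouse. None of 3 tested genes of mast cells, basophils and eosinophils passed.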
